A study of Mus musculus with 15 samples.

Results

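The genes described here build the contractile apparatus of striated muscle and the membrane systems that turn it on and off. There are 44 of them, taken by name from a list of sarcomere and excitation-contraction coupling genes, and all 44 had a row among the 23420 genes of the deposited tables. They were read by RNA-seq in newborn mouse tongue, which is largely muscle, and in epidermis, which has no muscle of its own. The libraries came from mice on postnatal day 1, either wild type or homozygous null (-/-) for the 7 genes Tmprss11a to Tmprss11g, a cluster of membrane-anchored epithelial serine proteases. The strain label, which names the same cluster, did not differ between genotypes, no treatment was given, and the labels do not say how many founder lines the knockouts came from. The groups held 4 wild-type (WT 1 to 4) and 4 knockout (KO 1 to 4) tongue libraries, and 3 wild-type (WT 1 to 3) and 4 knockout (KO 1 to 4) epidermis libraries. The labels carry an A-number for each library, read here as the animal. It gives 9 animals, of which 6 gave both tissues, and the numbers fall in the ranges A32x, A34x and A38x. The epidermis had been peeled from the dermis after heating in EDTA. The question the design puts to these genes is whether loss of the proteases changed them in either tissue.

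In a sarcomere, thin filaments of actin, tropomyosin and troponin slide along thick filaments of myosin, and titin, nebulin, the Z-disc and the M-band hold both in register. An action potential opens a voltage sensor in the transverse tubule, the ryanodine receptor then releases calcium from the sarcoplasmic reticulum, calcium binds troponin C, and a calcium pump returns it to its store. Many of these proteins come as fast, slow and cardiac or embryonic isoforms from separate genes, and newborn mouse muscle still uses several embryonic and neonatal forms. The tongue of rodents is known as a muscle of mainly fast fibres.

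The libraries held 10117819 (epidermis WT 1) to 17819195 (tongue KO 4) reads in genes, and mitochondrial ribosomal RNA took 20.1% to 44.6% of them, highest in epidermis WT 1. The targeted proteases, of which 6 of 7 were analysed, summed to 349.7 to 387.3 CPM (reads scaled to library size) in wild-type tongue and 135 to 151 in knockout tongue. In epidermis the sums were 236 to 310 in wild type and 109 to 250 in knockout. The sum in epidermis KO 2, 250 CPM, lay within the wild-type range, although its Tmprss11b stood at 0.331 CPM against 3.54 to 3.69 in wild type. The main edgeR values for knockout epidermis are therefore given with and without that library. CPM values are on a common scale (trimmed mean of M-values, TMM) over all 15 libraries. Levels of different genes are compared only per kb of merged exon length.

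The 44 genes took 3.64% to 5.85% of all tongue reads and 0.0654% to 0.158% of epidermis reads. In wild-type tongue Mylpf, the regulatory light chain of fast myosin, had the highest level, 4448 ± 463 CPM per kb (SD, n = 4). It was followed by skeletal actin Acta1 at 2002 ± 148 and by the 3 fast troponin subunits, Tnnc2 at 1910 ± 196, Tnnt3 at 1803 ± 382.8 and Tnni2 at 1096 ± 98.5 CPM per kb. The fast essential light chain Myl1 stood at 899.5 ± 88.4 CPM per kb. By reads the largest member was titin, Ttn, at 17295 ± 5757 CPM in wild type, while per kb it stood at 148 ± 49.3. The lowest of the 42 members with over 1 CPM in wild-type tongue was the ryanodine receptor Ryr1, at 4.68 ± 0.895 CPM per kb. The cardiac and slow light chains Myl2 and Myl3 gave 0 to 4 reads in each tongue library and were too low to test. In bulk RNA such as this, fewer muscle fibres and less RNA per fibre cannot be told apart.

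**Figure D1:**
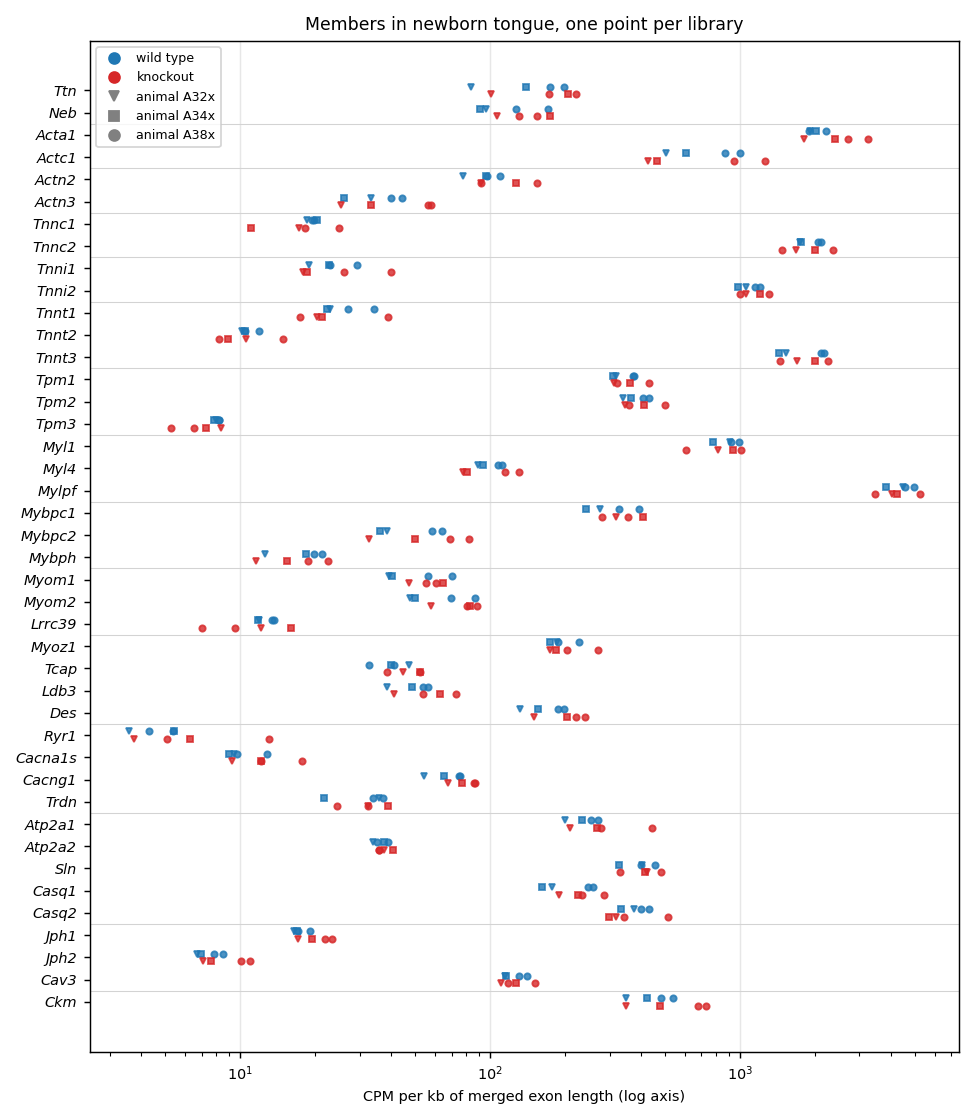
Level of 42 members in each tongue library, in CPM per kb of merged exon length on a log axis, with wild type in blue and knockout in red and a marker for the range of the animal's number. Mylpf lies highest and Ryr1 lowest, and in no row are the wild-type and knockout points fully apart.

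The fast form was the higher one, per kb, in all 3 troponin families. Troponin C, the calcium sensor, read 1730, 1754, 2102 and 2055 CPM per kb for fast Tnnc2 in wild-type tongue and 1668, 1985, 1466 and 2358 in knockout tongue. Slow and cardiac Tnnc1 read 18.6, 20.3, 19.3 and 19.8 in wild type and 17.2, 11.03, 18.1 and 24.8 in knockout. The fast gene therefore held 98.98% ± 0.105 of the pair in wild type and 99.04% ± 0.286 in knockout (SD, n = 4 each). KO 2 had the lowest Tnnc1, and the other libraries overlapped.

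Troponin I, the inhibitory subunit, gave 1051, 982, 1201 and 1151 CPM per kb for fast Tnni2 in wild type and 1054, 1198, 1002 and 1304 in knockout. Slow Tnni1 gave 18.9, 22.8, 22.8 and 29.3 in wild type and 17.8, 18.5, 26.0 and 40.0 in knockout. The fast share was 97.9% ± 0.336 against 97.8% ± 0.700, a difference smaller than the spread between libraries. Troponin T, which ties the complex to tropomyosin, gave 1518, 1428, 2109 and 2156 CPM per kb for fast Tnnt3 in wild type and 1684, 1999, 1444 and 2247 in knockout. Slow Tnnt1 gave 22.9, 22.2, 27.1 and 34.3 against 20.2, 21.2, 17.4 and 38.9. The fast share was 98.5% ± 0.134 in wild type and 98.7% ± 0.288 in knockout. The cardiac and embryonic form, Tnnt2, stood at 8.19 to 14.9 CPM per kb, below slow Tnnt1 in each tongue library. That order rests on the merged exon lengths, 7752 bases for Tnnt2 and 2204 for Tnnt1. Before division by length Tnnt2 was above Tnnt1 in each tongue library, with wild-type means of 83.0 and 58.7 CPM.

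Not all families leaned to the fast gene. For myosin-binding protein C, a regulator along the thick filament, slow Mybpc1 was the higher form, at 274, 241, 326 and 394 CPM per kb in wild type and 318, 408, 279 and 356 in knockout. Fast Mybpc2 stood at 38.5, 36.1, 64.4 and 58.3 in wild type and 32.8, 50.1, 68.8 and 82.0 in knockout. Its share was 13.7% ± 1.88 in wild type and 14.7% ± 5.31 in knockout, with KO 3 and KO 4 above and KO 1 and KO 2 below all wild-type libraries. Calsequestrin, the calcium buffer of the sarcoplasmic reticulum, also leaned to the slow and cardiac gene. Casq2 read 375, 332, 430 and 402 CPM per kb in wild type and 318, 299.7, 342.2 and 513 in knockout. Fast Casq1 read 177, 162, 247 and 258 against 188, 224, 234 and 285. The share of Casq1 was 35.1% ± 3.28 in wild type and 39.0% ± 3.20 in knockout, and the groups overlapped.

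Alpha-actinin crosslinks actin at the Z-disc. Actn2, found in all fibres, stood at 78.0, 96.5, 97.2 and 109 CPM per kb in wild type and 91.8, 127, 154 and 92.0 in knockout. Actn3, restricted to fast fibres in adults, stood at 33.3, 25.9, 44.4 and 40.3 against 25.4, 33.4, 58.2 and 56.6. The Actn3 share was 27.4% ± 4.49 and 27.0% ± 7.94.

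Of the calcium pumps, fast Atp2a1 read 199.8, 233, 253 and 270 CPM per kb in wild-type tongue and 208, 266, 443 and 278 in knockout tongue. Atp2a2, used by slow muscle, heart and many other cells, read 33.9, 37.6, 35.1 and 39.1 against 37.6, 41.0, 35.9 and 35.7. The Atp2a1 share was 86.7% ± 1.08 in wild type and 88.1% ± 3.32 in knockout, with KO 3 the highest at 92.5%. Junctophilins tie the transverse tubule to the sarcoplasmic reticulum. Skeletal Jph1 read 16.5, 16.9, 19.0 and 17.0 CPM per kb in wild type and 17.0, 19.4, 23.3 and 21.8 in knockout. Cardiac-type Jph2 read 6.74, 6.97, 7.82 and 8.52 against 7.07, 7.62, 10.05 and 10.9. The Jph1 share was 69.8% ± 2.15 and 69.7% ± 2.21.

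Of the tropomyosins, Tpm1 stood at 319, 311, 372 and 376 CPM per kb in wild type and 313, 363, 322 and 431 in knockout. Slow Tpm3 stood at 8.002, 7.86, 8.19 and 8.22 in wild type and 8.398, 7.31, 5.29 and 6.54 in knockout, with KO 3 and KO 4 lowest. Tpm1 held 97.7% ± 0.180 and 98.1% ± 0.504 of the pair. Tpm3 averaged 59.9 CPM in wild-type epidermis and 49.1 in wild-type tongue. Its tongue level therefore cannot be read as that of slow muscle alone. Of the light chains, Mylpf stood at 4468, 3828, 4947 and 4549 CPM per kb in wild type and 4054, 4230, 3467 and 5231 in knockout. Its slow and cardiac counterpart Myl2 gave 3, 4, 1 and 0 reads against 0, 4, 1 and 4. Myl1 stood at 911, 777, 988 and 922 CPM per kb against 818, 934, 605 and 1008, with KO 3 lowest in both fast genes. Its counterpart Myl3 gave 1, 0, 3 and 0 reads against 1, 2, 1 and 1. The pairs Mylpf with Myl2 and Myl1 with Myl3 stood between 99.99% and 100% for the fast gene in each library. The embryonic and atrial light chain Myl4 was present in each library, at 77.9 to 130 CPM per kb.

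No share passed the test between genotypes. Over the 12 pairs the smallest p was 0.143, for calsequestrin (exact permutation test, two-sided, 4 against 4 libraries), and the smallest adjusted p was 0.943. The smallest p that this design allows is 0.0286. Wild-type and knockout libraries overlapped in all 12. Shares moved with the length used: counted over coding length, Casq1 held 28.5% and Atp2a1 79.6% in wild type, and the higher gene of each pair stayed the same.

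**Figure D2:**
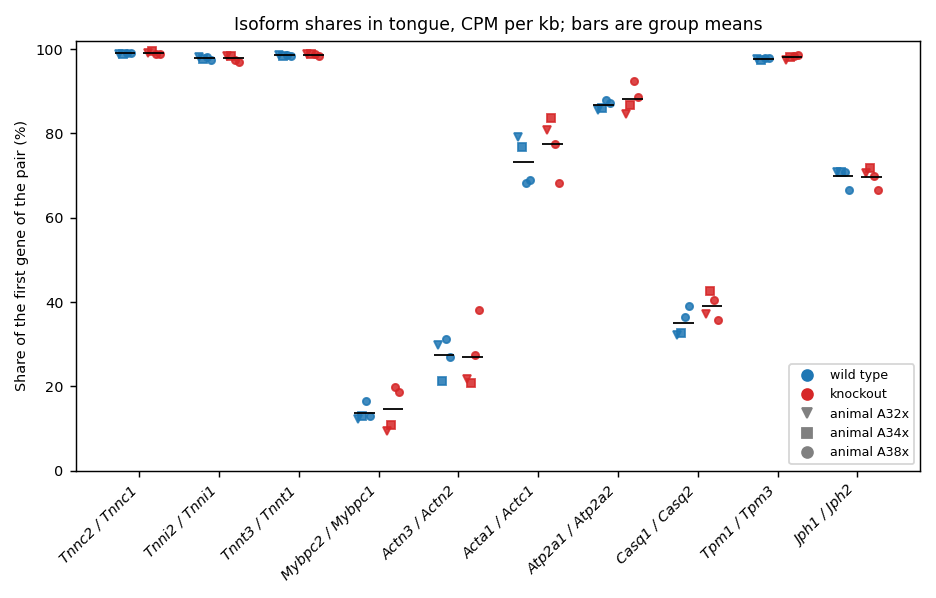
Share of the first named gene of 10 pairs in each tongue library, in percent of the summed CPM per kb, with wild type in blue, knockout in red and black bars for group means. The 3 fast troponins and Tpm1 lie above 97%, while Mybpc2, Actn3 and Casq1 lie below 43%.

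The sarcomeric actins polymerise into the thin filament. Of the paired genes tested, cardiac actin varied most between the 8 tongue libraries, with a coefficient of variation of 39.8%. Actc1, the form that skeletal muscle uses before birth, read 504, 606, 873 and 996 CPM per kb in wild type and 426, 467, 941 and 1259 in knockout. The lowest values were in WT 1, WT 2, KO 1 and KO 2, from animals A32x and A34x, and the highest in the A38x animals, in each genotype. Skeletal Acta1 read 1904, 2008, 1887 and 2209 in wild type and 1795, 2390, 3255 and 2706 in knockout. Its share of the pair was 73.3% ± 5.46 and 77.6% ± 6.69. Acta1 lies at chr8:123891769-123894751 and Actc1 at chr2:114047282-114053548 (GRCm38, both on the minus strand). Their proteins are nearly identical, so the first 90 coding bases are shown for how far the reads can be told apart, with the 14 differing bases in capitals.
Acta1: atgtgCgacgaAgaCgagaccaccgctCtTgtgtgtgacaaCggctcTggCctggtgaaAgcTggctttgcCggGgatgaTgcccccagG
Actc1: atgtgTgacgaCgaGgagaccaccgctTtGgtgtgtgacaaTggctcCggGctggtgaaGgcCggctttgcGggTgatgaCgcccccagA
Over all 1134 coding bases the genes were 86.2% identical, and the longest identical run was 29 bases, shorter than the 37-base reads. No 37-base window of one occurred in the other, by GENCODE transcripts.

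Other members shared sequence with a neighbour or copy. Of the 37-base windows in the coding sequence, 70.4% of those of Tpm3 also occurred in Tpm3-rs7, 69.6% of those of Tnnc2 in Ube2c, 52.9% of those of Myl1 in Mylf-ps and 29.1% of those of Ckm in A930016O22Rik. The counts of these 4 genes are uncertain, since how reads were counted, and whether strand was used, is unknown here. The same share was 18.1% for Mybph and 15.02% for Atp2a1, and below 10% for the others.

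Promoter windows, from 250 bases before to 50 after a start, were found in the RefSeq table (GRCm38.p6) for 32 of the 44 members. The CArG box, the site known to bind serum response factor, is shown because it was held by 6 of 38 member windows (15.8%) and by 1.64% of all 32544 windows. The windows came from 5 genes, and the box stands in capitals within 40 bases of the gene's own strand, searched on both strands.
Acta1, chr8:123894824-123894863, minus strand: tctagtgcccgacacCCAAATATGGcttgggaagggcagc
Actc1, chr2:114052898-114052937, minus strand: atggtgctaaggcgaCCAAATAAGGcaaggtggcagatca
Ldb3, chr14:34588692-34588731, minus strand: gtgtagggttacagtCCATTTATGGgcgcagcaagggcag
Myl3, chr9:110763578-110763617, plus strand: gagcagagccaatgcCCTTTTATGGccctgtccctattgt
Myom1, chr17:71019443-71019482, plus strand: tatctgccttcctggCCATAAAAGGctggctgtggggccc
The box ended 63 bases before the start in Acta1, 37 in Actc1, 99 in Ldb3, 75 in Myl3 and 89 in Myom1. For Ldb3 this is by the window chr14:34588558-34588857. Its other window, chr14:34588632-34588931, held the same box nearer to its start. Levels of these 5 genes in wild-type tongue ran from 2002 CPM per kb for Acta1 to 0.0391 for Myl3. The E-box CANNTG, the core bound by myogenic factors, was found in 89.5% of member windows and 72.3% of all windows. The MEF2 site was found in 7.89% and 3.16%. TATAAA was found in 15.8% and 13.6% and GGGCGG in 36.8% and 35.9%. A match to these letters is a description of the window and not a bound site.

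In knockout tongue no member passed the test. Of the 42 members tested with edgeR's quasi-likelihood test, 0 passed at an adjusted p under 0.05 (Benjamini-Hochberg over 15741 genes), where 2 of all genes, or 0.0127%, passed. These 2 were themselves targeted genes. Of the 6 targeted genes analysed, 5 had an unadjusted p under 0.05 and only these 2 passed after adjustment. DESeq2 and limma-voom also passed 0 members. An unadjusted p under 0.05 was found for 0 members in edgeR, 1 in DESeq2 and 0 in limma-voom, and for 496 of all genes in edgeR. The 0 in edgeR depended on the fit. It became 6 once A32x, A34x and A38x were fitted as blocks (814 of all genes) and 3 with the replicate number blocked (681). Without KO 1 it was 12 (898 of all genes), and 0 to 3 with any other single library left out. A38x libraries alone gave 8 (2056 of all genes). In each of these fits 0 members passed after adjustment. In the main edgeR fit the smallest adjusted p of a member was 0.939. For 41 of the 42 members the 95% interval of the log2 fold change, knockout over wild type, lay within 2-fold of no change. The members' median log2 fold change was 0.12, with 31 above 0 and 11 below, against a median of 0.01 over all genes. Without KO 4 the members' median was 0.01, with 21 above 0 and 21 below. Wild-type and knockout libraries did not overlap for 0 of the 42, and for 2.29% of all genes. The labels do not name litters or cultures, so p-values describe only how far these animals differ.

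By role, the Z-disc and intermediate filament genes (Myoz1, Tcap, Ldb3 and Des) had log2 fold changes of 0.11 to 0.28. The troponins ran from -0.13 to 0.13, and the light chains Mylpf, Myl1 and Myl4 from -0.10 to 0.00. The calcium release genes (Ryr1, Cacna1s, Cacng1 and Trdn) ran from -0.01 to 0.59. Of the 5 members with the smallest p, Cacng1 and Cacna1s were in that role, and Jph1, Acta1 and Tpm3 were each in a different one. Jph1 read 82.4, 84.3, 95.2 and 84.8 CPM in wild type and 85.1, 96.7, 117 and 109 in knockout. KO 1 lay among the wild-type values and the other knockouts above all of them. Its log2 fold change was 0.23 (SE 0.11, 95% interval -0.01 to 0.48).

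Acta1 read 2925, 3084, 2898 and 3394 CPM in wild type and 2757, 3671, 4999 and 4157 in knockout, a log2 fold change of 0.34 (SE 0.17). KO 1 was the lowest of all 8 libraries and the other knockouts were the 3 highest. Cacng1, the gamma subunit of the skeletal voltage sensor, read 67.8, 81.3, 93.5 and 94.98 against 84.9, 95.9, 109 and 108, a log2 fold change of 0.24 (SE 0.12). Cacna1s, the pore of that channel, read 62.1, 59.2, 63.9 and 83.9 against 60.5, 79.2, 116 and 79.3, a log2 fold change of 0.32 (SE 0.18). Tpm3 was the only one of these 5 with a lower knockout mean, 48.7, 47.8, 49.8 and 50.03 CPM against 51.1, 44.5, 32.2 and 39.8, a log2 fold change of -0.23 (SE 0.13). In none of the 5 were the groups apart.

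Ryr1, the calcium release channel, had the widest interval. It read 78.5, 119, 94.0 and 118 CPM in wild type and 82.4, 138, 284 and 111 in knockout. One library, KO 3, was far above the rest. The log2 fold change was 0.59 (SE 0.36, interval -0.23 to 1.41), and without KO 3 it was 0.11.

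**Figure D3:**
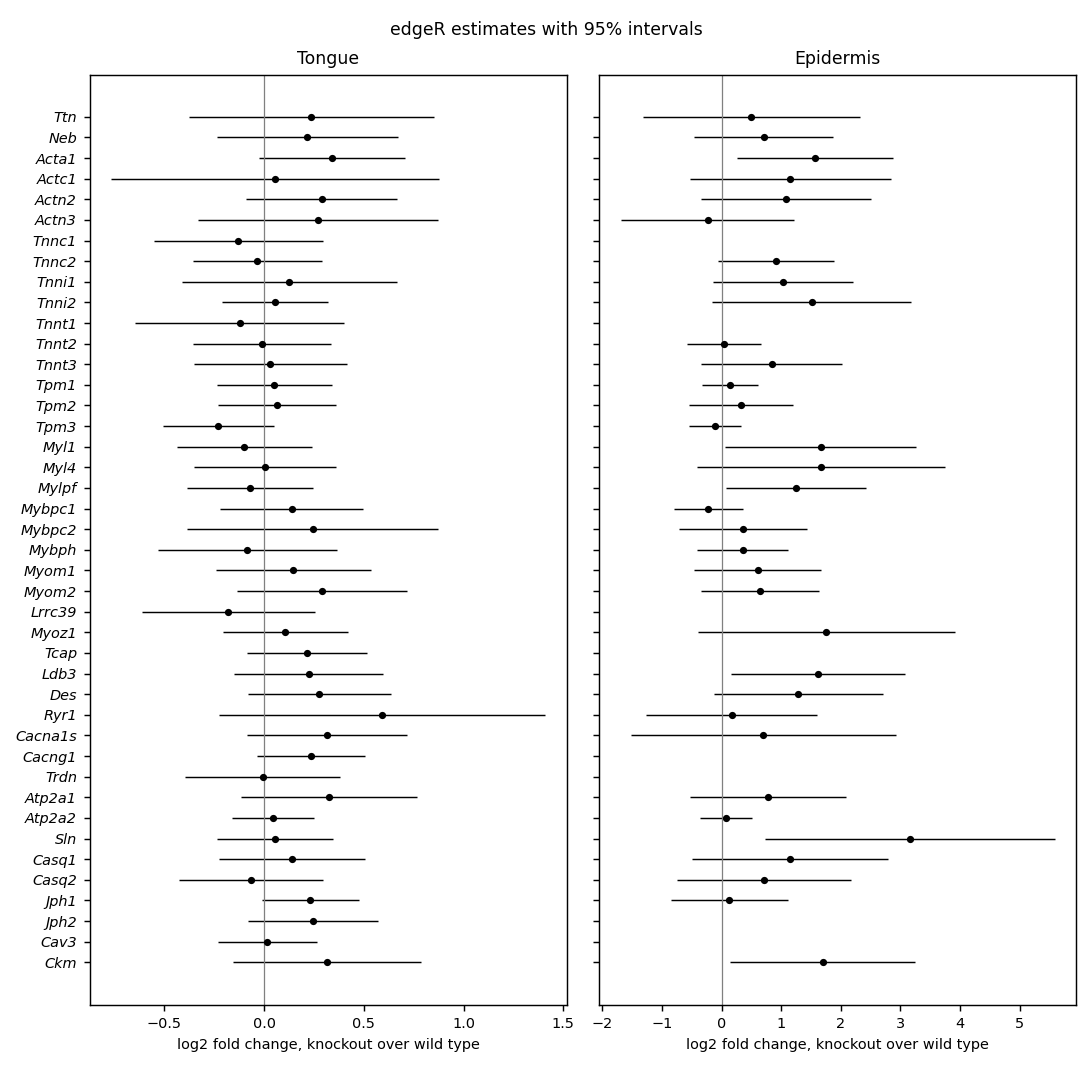
Log2 fold change of each tested member, knockout over wild type, with its 95% interval from edgeR, in tongue (left) and epidermis (right, on a wider axis). In tongue only Ryr1 reaches beyond 1 in either direction, and in epidermis most intervals do.

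The tongue libraries also differed within each genotype. Summed over the members, wild-type tongue held 40218, 45801, 57021 and 62102 CPM and knockout tongue 42069, 61068, 62093 and 62539. The lowest library of each genotype was the one from the A32x animal, and WT 2, from A34x, came next. This order in wild type rests on titin. Without it the sum was 30455.5 CPM in WT 1 and 29623.3 in WT 2, the lowest wild type. KO 1 stayed the lowest knockout without titin, at 30320.1 CPM. Titin, the member with the most reads, gave 9762, 16177, 20203 and 23037 CPM in wild type and 11749, 23899, 25683 and 20082 in knockout. Both A32x libraries lay below all 6 others for 10 of the 42 members, where 10% of all tested genes did so. These 10 were Ttn, Actn2, Tpm2, Mybph, Ldb3, Des, Ryr1, Atp2a1, Cav3 and Ckm. Of all 44 members, KO 4 was the highest library for 23, KO 3 for 12 and KO 2 for 5. The same shares over all genes were not computed, so these counts are not read as a trait of the members.

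Over the 8 tongue libraries the coefficient of variation ran from 6.20% for Atp2a2 to 51.7% for Ryr1, with a median of 19.1%. Sarcomere genes outside the list summed to 11552 CPM in WT 1 and 13048 in KO 1 against 12546, in WT 2, to 19868 in the others. Most of these sums was the myosin Myh8, at 6945 CPM in WT 1 and 8092 in KO 1. Fibroblast genes summed to 7126 to 8427 CPM, and the tongue epithelium list (keratins, Rptn and Sprr3) to 8587 to 13627, highest in WT 4. Heart genes summed to 106 CPM in KO 1 and 26.9 to 42.6 in the other tongue libraries, with Myh6, the atrial myosin, at 43.0 CPM in KO 1 and 2.39 to 9.47 elsewhere. That library had the lowest Actc1, at 689 CPM. The part of these markers in the members' values was not tested.

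**Figure D4:**
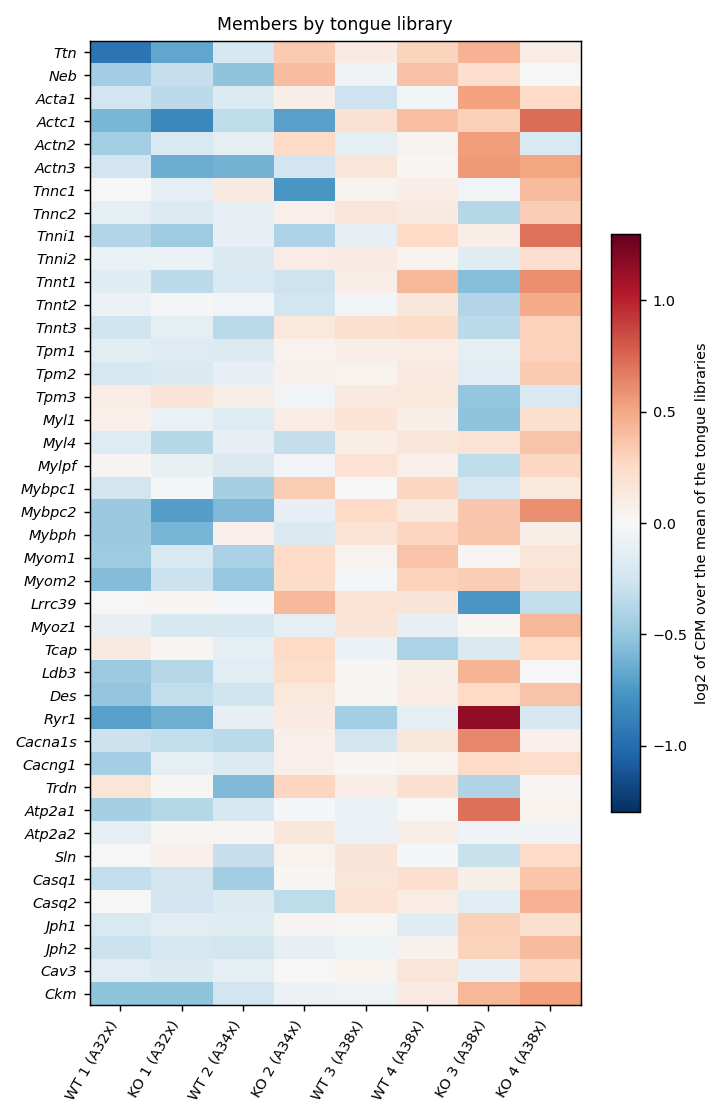
Log2 of each member's CPM over its mean in the 8 tongue libraries, by member (rows) and library (columns, ordered by the range of the animal number). The A32x columns and WT 2 are mostly blue and WT 4 and KO 4 mostly red, and Ryr1 in KO 3 is the darkest red.

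Among genes of the same pathways outside the list, 0 passed in knockout tongue in edgeR, and 1 of the 80 tested had an unadjusted p under 0.05. The median log2 fold change of 37 further sarcomere genes was 0.18, with 30 above 0, among them the neonatal myosin Myh8 (wild-type mean 9467 CPM, knockout 10677), the embryonic Myh3 (631 and 710) and the adult fast Myh4 (524 and 630.1). It was 0.06 for 25 further excitation-contraction coupling genes, among them the calcium-binding sarcalumenin Srl (1108 and 1133 CPM). It was 0.03 for 18 muscle energy genes, among them enolase Eno3 (1677 and 1739) and aldolase Aldoa (1440 and 1571). Muscle creatine kinase, Ckm, which keeps ATP up at the myofibril, averaged 1307 ± 236 CPM in the wild types and 1626 ± 512 in the knockouts (SD, n = 4 each).

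Epidermis held the members at a small fraction of the tongue level. Of 42 members tested between wild-type epidermis (n = 3) and wild-type tongue (n = 4), 40 were lower in epidermis at an edgeR adjusted p under 0.05, and 31.6% of all 16577 genes were lower by the same rule. The members' median log2 fold change, epidermis over tongue, was -7.84. Sln and Cav3 had the most negative values, -11.2 and -11.5. The other 2 members, Tpm3 and Atp2a2, did not pass (log2 fold change 0.31 each, edgeR adjusted p = 0.111 and 0.083).

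Of the 42 members with over 1 CPM in wild-type tongue, 5 reached more than 5% of that mean in wild-type epidermis, and 37 did not. These 5 were Atp2a2 (122%), Tpm3 (122%), Tnnt2 (61.7%), Mybph (8.72%) and Tpm1 (5.51%). Atp2a2, which pumps calcium in keratinocytes too, read 267, 269 and 273 CPM in wild-type epidermis and 286, 338, 231 and 299.6 in knockout. Tpm1 read 105, 131 and 133 against 101, 169, 137 and 149. Both had overlapping groups. Tpm3 read 45.4, 69.7 and 64.4 against 53.1, 64.0, 50.9 and 57.8. Tnnt2 read 69.1, 39.0 and 45.4 against 42.1, 75.3, 38.8 and 58.4 CPM, and its difference between tissues was the weakest one called (log2 fold change -0.68, edgeR adjusted p = 0.0168). Mybph read 5.28, 2.31 and 3.38 against 5.03, 4.31, 4.03 and 5.49.

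The next medians cover only the 37 members not above 5%. The 5 left out were picked by their level in wild-type epidermis, which lowers the medians. The median percent of the wild-type tongue mean was 0.192, 0.237 and 0.366 in WT 1 to WT 3 and 0.467, 1.35, 0.410 and 0.251 in KO 1 to KO 4. Ttn read 142, 63.2 and 176 CPM in wild type and 112, 462, 117 and 49.0 in knockout. KO 2 was the highest library for 30 of the 34 members tested in epidermis, where it was the highest for 20.5% of all tested genes. Adipocyte genes summed to 44.6 CPM in KO 2 and 11.3 to 24.3 in the others. Endothelial genes summed to 8.70 against 2.10 to 4.31, and the tongue epithelium list (6 keratins, Rptn and Sprr3) to 1847 against 333 to 1196. Of that list Krt13 stood at 45.4 CPM in KO 2 and 10.3 to 28.9 in the others, while Rptn, at 803 in KO 2, was highest in WT 3, at 911. Fibroblast genes summed to 791 CPM in KO 2 and were highest in KO 3, at 850. The part of these markers in the members' values was not tested.

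In the 6 animals with both tissues the median percent was taken over all 42 members, epidermis over the same animal's tongue. It was 0.544 in A328, 1.54 in A343, 0.255 in A383, 0.350 in A384, 0.380 in A386 and 0.219 in A387. A343 gave epidermis KO 2 and tongue KO 2. Its tongue library was not the highest of the 8, with 61068 CPM over the members.

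**Figure D5:**
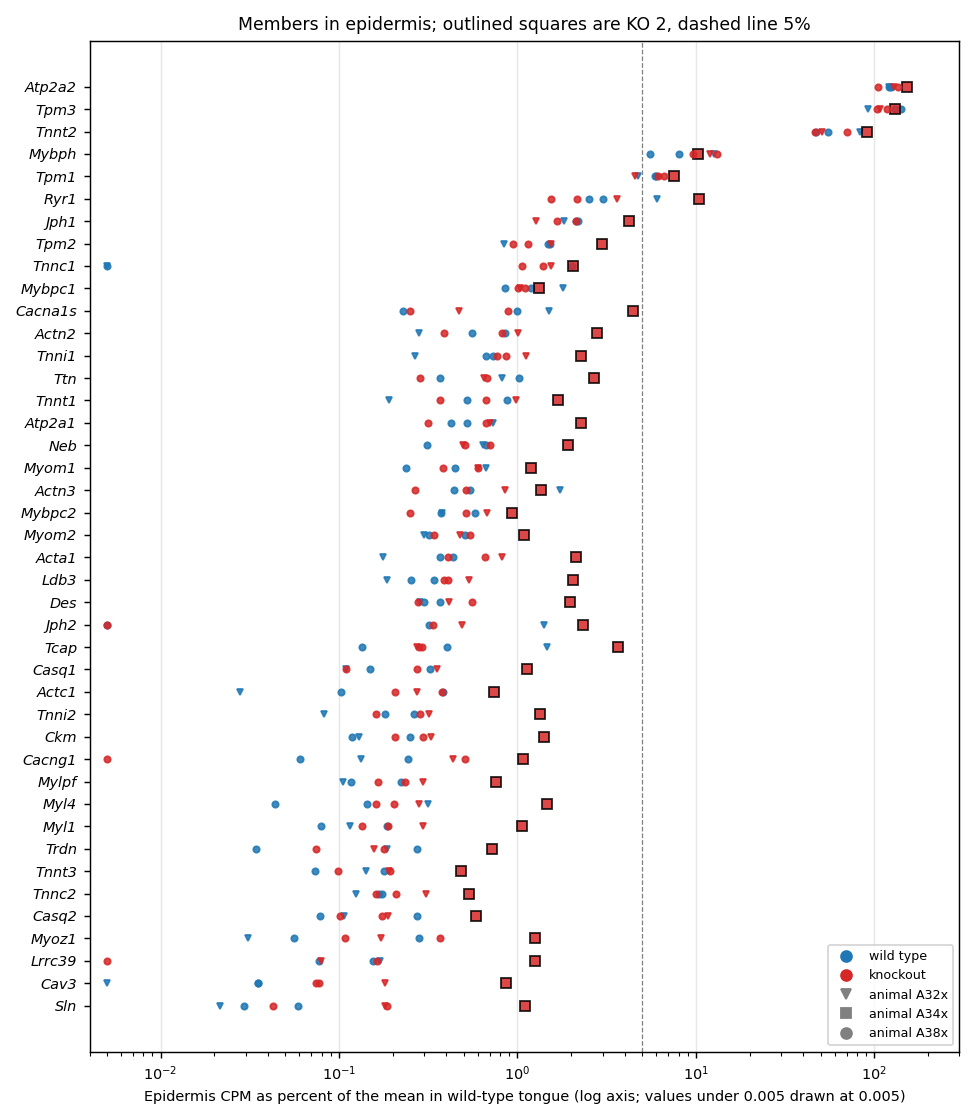
Epidermis CPM of each member in each library as percent of its mean in wild-type tongue (log axis, dashed line at 5%), with wild type in blue, knockout in red and KO 2 as outlined squares. Atp2a2 and Tpm3 lie near 100% and most others below 1%, with KO 2 to the right of the other libraries in most rows.

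In knockout epidermis no member passed either. Of 34 tested, 0 passed in edgeR, in DESeq2 and in limma-voom, and an edgeR adjusted p under 0.05 was reached by 0.0% of 16073 genes. The 6 targeted genes analysed did not pass in edgeR either, though 4 of them had an unadjusted p under 0.05. The lack of calls in epidermis is therefore weak evidence that the members were unchanged. An unadjusted p under 0.05 was found for 6 members in edgeR, 9 in DESeq2 and 1 in limma-voom, and for 187 of all genes in edgeR. The median log2 fold change was 0.74 over the members and 0.00 over all genes, with 31 members above 0. Without KO 2 the median was 0.25, with 21 above 0 and 12 below of 33 tested, and 1 had an unadjusted p under 0.05. With the range of the A-numbers as a block it was 0.26, and in the A38x libraries alone 0.10. KO 2 was the only A34x library in epidermis, so it adds nothing to the fold changes of either fit. The other 10 members had too few reads to test. Groups did not overlap for 2 of the 34 tested, Tnni1 and Ldb3, and for 2.2% of all tested genes.

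Sarcolipin, Sln, the small peptide that inhibits the calcium pump, had the smallest p. It read 0.112, 0.154 and 0.308 CPM in wild-type epidermis and 0.943, 5.80, 0.968 and 0.224 in knockout, which is 1, 3 and 6 reads against 18, 70, 18 and 4. Its log2 fold change was 3.16 (SE 1.08, edgeR adjusted p = 0.9998). No wild-type library reached the filter's minimum count of 10 for Sln. It entered the test only through knockout libraries, so its rank is no support for a difference. Without KO 2 Sln had too few reads to be tested, and its knockout mean fell from 1.98 to 0.712 CPM, against 0.191 in wild type. KO 4 lay within the wild-type values. Its whole coding sequence is 96 bases for 31 residues, and none of its 37-base windows occurred in another gene.
Sln: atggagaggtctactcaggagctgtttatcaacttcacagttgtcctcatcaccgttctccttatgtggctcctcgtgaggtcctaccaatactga
Acta1 read 5.39, 11.3 and 13.3 CPM in wild type and 25.04, 65.7, 20.2 and 12.5 in knockout, a log2 fold change of 1.57 that was 0.92 without KO 2. Ldb3, a Z-disc adaptor, read 0.562, 0.769 and 1.03 against 1.62, 6.21, 1.24 and 1.18, with all knockouts above all wild types, a log2 fold change of 1.61 and 0.73 without KO 2. Ckm read 1.69, 1.54 and 3.28 against 4.30, 18.5, 3.87 and 2.69, and its 1.69 became 0.72. Mylpf read 4.94, 5.48 and 10.5 against 14.0, 35.9, 11.03 and 7.84, and its 1.25 became 0.63. Myl1, the sixth, had a log2 fold change of 1.67, and 0.68 without KO 2. In these 6 genes KO 2 was the highest library and KO 4 was within or just above the wild-type values.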

How the data were processed

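The deposited count table holds whole reads per Ensembl gene. Per the submitters' processing notes, the authors used STAR 2.5.2a and the build GRCm38.p3, with the counter, strand setting and annotation all not given in the sources used here. Libraries were made with SMARTer V4 and TruSeq v2 kits and read in pairs of 37 bases, per the labels' protocols. A deposited signal table, equal to the counts over a library constant, served for gene names. Left out were 2 transgene entries (at most 0.00439% of reads).

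Counts were tested with edgeR 4.0.16 in R 4.3.3 (robust quasi-likelihood, filterByExpr at a minimum count of 10, TMM), Benjamini-Hochberg over all genes, beside DESeq2 1.42.0, limma 3.58.1 (voom), other scalings, filters and blocks, and left-out libraries. Fits were tested on simulated data. Lengths are merged exons of GENCODE M21. The scale over all 15 libraries differed from that within a comparison by at most 0.05 (log2).

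Members and lists were chosen with earlier results of these data known. Named with all values are both genes of each pair described, the 5 members with the smallest p in each knockout comparison and the 5 highest in epidermis. From other lists up to 3 genes are named. Ryr1, Myl1, Mybph, Tnni1, Myh6, Tmprss11b and the members low in A32x were added after their values were seen. Same-numbered epidermis libraries had correlations over genes of 0.608, 0.196 and 0.434. WT 2 and KO 2 were in different A-number ranges, and WT 2 had higher correlations with KO 3 (0.397) and KO 4 (0.283). Whether the numbers mark pairs is therefore not settled. The main epidermis fit had no block, and the fit with the number as a block is given below.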

Additional observations from a re-analysis of the deposited data

Results flagged for a closer look

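Of 89 values checked in groups of 4 libraries, 7 had one library apart from the other 3 by more than Dixon's critical value at 95%. Chance flags about 1 in 20 groups where values are unrelated and not picked by their level, which does not hold for all of these. In knockout epidermis, KO 2 stood apart for 5 of the 7 values flagged. Of those 5, Sln, Ldb3 and Ckm had been named for their small p in this comparison, and Ttn is part of the summed members. Sln was 5.80 CPM there against 0.224 to 0.968 in the other 3, Ldb3 6.21 against 1.18 to 1.62, Ckm 18.5 against 2.69 to 4.30, and Ttn 462 against 49.0 to 117. The members summed to 1539 CPM in KO 2 and 718 to 751 in the others. In knockout tongue the summed members were lowest in KO 1, at 42069 CPM against 61068 to 62539. In wild-type tongue the Jph1 share was 66.6% in WT 4 and 70.8% to 71.0% in the others.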

How the results depend on the processing

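The counts of members called kept their side under all alternatives run. In tongue and in epidermis 0 members were called under each of them, the replicate block included, where 0 members passed in either tissue. In the comparison of tissues 40 members were called, 40 with the replicate block, 41 with the animal as a block and 39 to 42 with libraries left out in turn. Tnnt2 was not called without epidermis WT 2 or WT 3 (adjusted p = 0.0507 and 0.0554). Tpm3 was called higher in epidermis with the animal block, and Tpm3 and Atp2a2 were so without epidermis WT 1. DESeq2 called Atp2a2. The block left the calls of knockout against wild type as they were, while the epidermis median went from 0.74 to 0.91 and 12 members had an unadjusted p under 0.05. Same-numbered tongue libraries had correlations of 0.537, 0.135, -0.121 and 0.211 and share a number and an A-number range. With 1 of these under 0.1 they were not treated as pairs. Of the members' log2 fold changes recomputed, 64 in tongue and 40 in epidermis changed sign, none of them called in either fit, and of the shares 1 moved by more than 1 SD, calsequestrin in the A38x libraries alone. Depth limits epidermis, where 25 to 40 of the 44 members had 10 or more reads in a library.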
